A study of Mus musculus with 12 samples.

Results

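The AP-1 family is described here by 8 genes, the Fos subfamily genes Fos, Fosb and Fosl2, the Jun subfamily genes Jun, Junb and Jund, and the related bZIP genes Atf3 and Maff. They were found as the probe sets to which the platform annotation gives one of these symbols as a single gene, which yielded 11 of 45101 probe sets, 2 each for Fosl2, Jun and Jund and 1 for each other gene. AP-1 is a dimer of basic leucine zipper (bZIP) proteins. Jun proteins pair with each other or with Fos proteins, whereas Fos proteins need a Jun partner, and the dimer binds the DNA element known as TRE. In T cells, signals from the T cell receptor raise Fos and Jun family activity through MAP kinases, and AP-1 binds composite elements with NFAT, or with IRF4 when BATF is the Jun partner.

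RNA of splenic CD4 T cells from female MRL/Faslpr mice, a lupus-prone strain whose gene for the death receptor Fas carries the lpr mutation, was hybridised to 12 Affymetrix arrays, 3 for each of 4 sorted populations. All cells were TCRb+ CD4+ B220-. The CD62Llo PSGL1lo, CD62Llo PSGL1hi and CD62Lhi PSGL1hi populations were CD44+ and were sorted at an age of 16 to 24 weeks. Naive cells were CD62Lhi CD44lo and were sorted at 6 to 8 weeks, so population and age cannot be told apart in comparisons with naive cells. All groups carry the Faslpr allele, there is no Fas-sufficient strain among them, and the number of mice per sort is not given in the sources used here. The titles call the 3 arrays of a population technical replicates and the series text describes 3 independent sorts, so the p-values speak for the spread among these arrays alone. For CD62Llo PSGL1hi the titles were followed, since the description there gives a different gate. CD62L and PSGL1 are homing molecules: CD62L guides cells into lymph nodes, and PSGL1 is a ligand for selectins.

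Deposited values are ratios, in which every probe set has a median of 1 over the 12 arrays. Such a ratio sets arrays against each other and holds no information on brightness, so neither the abundance of one AP-1 gene relative to another nor the presence of T cell markers could be read. Differences are on the log2 scale ± SE from limma over all 12 arrays, and the threshold for a call was 0.05 after Benjamini-Hochberg adjustment over 45037 probe sets. In bulk RNA, fewer cells of a type and less RNA per cell cannot be told apart. Between the 3 arrays of a population the 11 AP-1 probe sets had a median SD of 0.178 on the log2 scale in CD62Llo PSGL1lo cells (0.151 over all probe sets), 0.149 in CD62Llo PSGL1hi cells (0.118), 0.155 in CD62Lhi PSGL1hi cells (0.142) and 0.145 in naive cells (0.105).

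Promoter sequences were taken from RefSeq (GRCm38.p6), which held all 8 genes with 10 starts, to show which control elements lie just before the genes whose RNA differed. The 120 bases before the start are given 5′ to 3′ for Fos, Fosl2, Jun, Junb and Maff. Jund, whose RNA also differed on 1 probe set, is not printed. Of the 3 Maff starts only the one with the full CRE is printed. Capitals mark TGACG (the core of the cyclic AMP response element, CRE), TGACGTCA (the full CRE) and TGACATCA (a TRE-like element). They also mark TATAAA (the core promoter element bound by TBP) and CCAAT.
Fos, chr12:85473770-85473889, plus strand: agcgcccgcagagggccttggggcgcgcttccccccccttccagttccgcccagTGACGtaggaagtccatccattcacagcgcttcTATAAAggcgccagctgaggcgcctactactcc
Fosl2, chr5:32136352-32136471, plus strand: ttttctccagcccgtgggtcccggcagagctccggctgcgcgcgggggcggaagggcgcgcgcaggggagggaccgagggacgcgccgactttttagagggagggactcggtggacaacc
Jun, chr4:95052223-95052342, minus strand: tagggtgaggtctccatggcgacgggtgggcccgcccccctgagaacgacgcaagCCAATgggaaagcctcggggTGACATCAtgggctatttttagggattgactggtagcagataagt
Junb, chr8:84978749-84978868, minus strand: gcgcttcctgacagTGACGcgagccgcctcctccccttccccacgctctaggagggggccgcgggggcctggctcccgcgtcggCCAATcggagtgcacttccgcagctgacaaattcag
Maff, second of 3 RefSeq starts, chr15:79347400-79347519, plus strand: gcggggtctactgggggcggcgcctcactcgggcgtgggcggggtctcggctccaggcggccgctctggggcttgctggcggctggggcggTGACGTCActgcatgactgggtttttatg

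Over the 250 bases before each start, searched on both strands, Fos held TGACG at 129 and 66 bases before the start, Fosb at 60, Junb at 106, Atf3 at 7 on the minus strand and Maff at the second and the third start, and 17.8% of all 32851 promoters held it. Full CRE letters were found among the members only at the second Maff start, 29 bases before it, and in 1.55% of all promoters. TGACATCA lay 45 bases before the start in Jun and at the third Maff start, and in 2.93% of all promoters. The letters TGANTCA of the TRE were found in no member window and in 6.75% of all promoters. The Fosl2 window held none of these motifs but GGGCGG, the GC box, which overlaps none of the others there and occurs in 32.7% of promoters. The Jund window and that of the first Maff start held none of the motifs searched, GGGCGG included. TGACG is contained in TGACGTCA, so a full CRE counts under both. These are letter matches, and which start is used in these cells was not measured.

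RNA of several AP-1 genes was higher in the CD44+ populations than in naive cells, and among the CD44+ populations Maff was higher in CD62Llo PSGL1lo cells. Over the 4 populations 5 of 11 AP-1 probe sets differed by limma's F test (23.7% of all probe sets did): Fosl2 on 1 probe set, Fos, Maff, Junb, and Jund on 1 probe set.

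**Figure D1:**
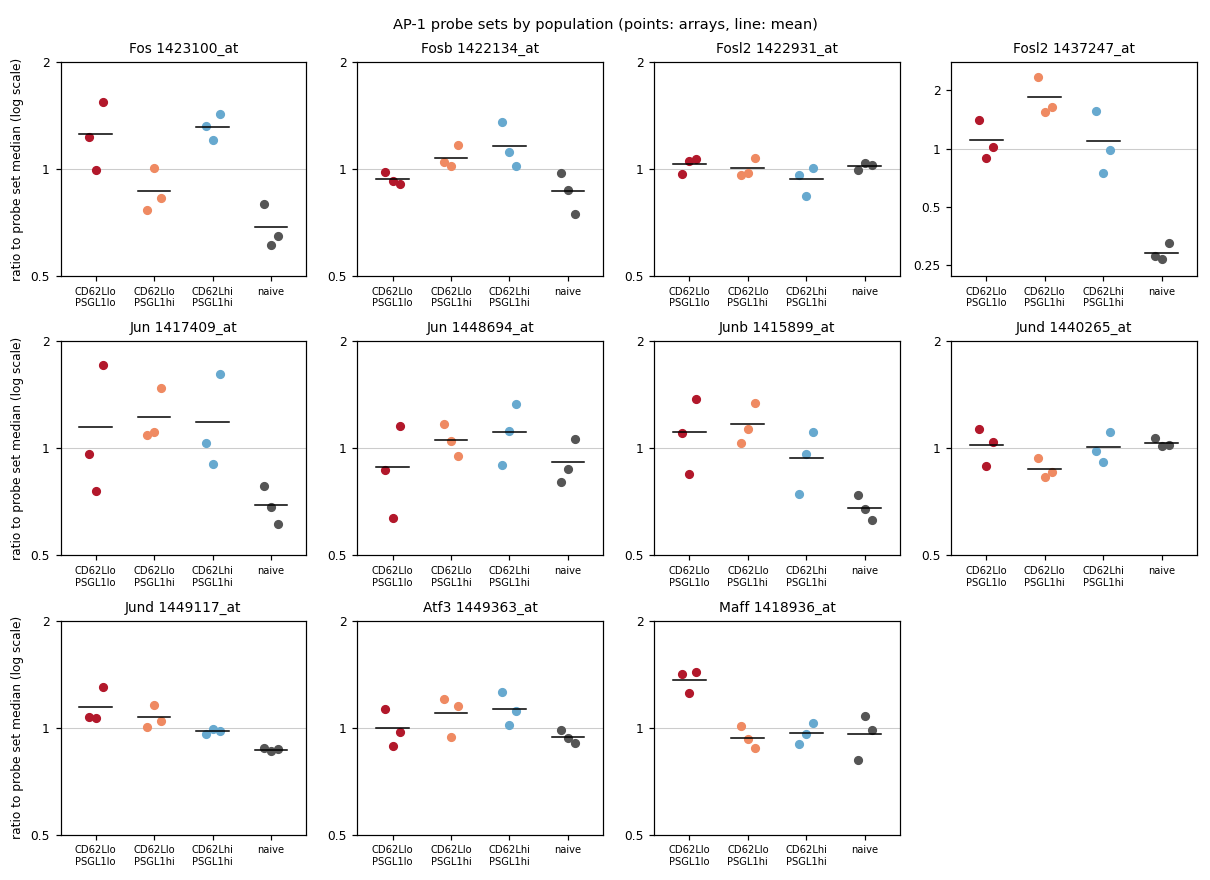
Ratio of each AP-1 probe set to its own median over the 12 arrays (y axis, log scale; the second Fosl2 panel has a wider range) in the 4 populations, with 1 point per array and a line at the mean. Naive arrays lie lowest for Fosl2 1437247_at, at 0.268 to 0.324, and the 3 CD62Llo PSGL1lo arrays lie highest for Maff, at 1.249 to 1.432.

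Among the Fos subfamily, Fosl2 showed the widest separation. Fosl2 encodes Fra-2, a Fos protein that lacks the strong activation domain of c-Fos. On probe set 1437247_at its ratio was 1.406, 0.892 and 1.013 in CD62Llo PSGL1lo cells, 2.334, 1.553 and 1.645 in CD62Llo PSGL1hi cells, 1.557, 0.745 and 0.987 in CD62Lhi PSGL1hi cells, and 0.278, 0.268 and 0.324 in naive cells (replicates 1, 2 and 3 in each). Every CD44+ array lay above every naive array. Fosl2 was 6.27-fold higher in CD62Llo PSGL1hi than in naive cells (log2 difference 2.65 ± 0.24, adjusted p = 2.02e-06), and 0.726% of all probe sets had a larger difference. It was 3.75-fold higher in CD62Llo PSGL1lo than in naive cells (1.91 ± 0.24, adjusted p = 3.84e-05) and 3.62-fold higher in CD62Lhi PSGL1hi than in naive cells (1.86 ± 0.24, adjusted p = 6.94e-05), the last of which was 0.94 with adjusted p = 0.0764 after quantile normalization. The lowest value of the CD62Llo PSGL1lo difference in any alternative setting was 1.07.

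Within the CD44+ cells the order for Fosl2 had CD62Llo PSGL1hi at the top, and the other populations did not differ beyond their spread. The difference was -0.74 ± 0.24 for CD62Llo PSGL1lo minus CD62Llo PSGL1hi cells (adjusted p = 0.0818) and 0.79 ± 0.24 for CD62Llo PSGL1hi minus CD62Lhi PSGL1hi cells (adjusted p = 0.192). Arrays with the same replicate number deviated together among the CD44+ populations, and with the replicate number as a block within the 9 arrays both passed (adjusted p = 0.000648 and 0.00169). The first also passed without CD62Lhi PSGL1hi replicate 1 (adjusted p = 0.0273) or 2 (0.0423) or CD62Llo PSGL1lo replicate 1 (0.0338), and the second without CD62Lhi PSGL1hi replicate 1 (0.0252). CD62Llo PSGL1hi was higher than both other CD44+ populations at each of the 3 replicate numbers. Of 7 measured NK and CD8 T cell markers, the NK receptor genes Klrc1 and Klrd1 moved with this order. They were called lower in CD62Llo PSGL1lo minus CD62Llo PSGL1hi cells (-4.03 and -4.59; 9.61% of 18193 genes with 1 probe set each were called there) and higher in CD62Llo PSGL1hi minus CD62Lhi PSGL1hi cells (2.06 and 1.63; 1.6% of these genes). The mean ratio of the list per array was 0.748 to 0.777 in CD62Llo PSGL1lo, 1.6 to 3.7 in CD62Llo PSGL1hi, 1.02 to 1.7 in CD62Lhi PSGL1hi and 1.07 to 1.15 in naive cells. Without Klrc1 and Klrd1 it was 0.885 to 0.946, 0.958 to 1.05, 0.999 to 1.14 and 1.19 to 1.26 in the same order. None of the other 5, which include Cd8a, Cd8b1 and Ncr1, was called in either comparison. The other Klrc1 probe set was not called the same way as the kept one in either, and Klrd1 had only 1 probe set. No ratio was at 0, and the part of these genes in the Fosl2 result was not tested.

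The other Fosl2 probe set, 1422931_at, did not separate the populations: its ratio was 1.03 ± 0.0531 in CD62Llo PSGL1lo, 1.00 ± 0.0619 in CD62Llo PSGL1hi, 0.937 ± 0.0886 in CD62Lhi PSGL1hi and 1.02 ± 0.0239 in naive cells (SD, n = 3 each), with adjusted p of at least 0.468 in the 6 comparisons. The correlation between both Fosl2 probe sets over the 12 arrays was -0.11.

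Fos, the founding partner of Jun, had ratios of 1.232, 0.993 and 1.545 in CD62Llo PSGL1lo cells, 0.765, 1.007 and 0.828 in CD62Llo PSGL1hi cells, 1.320, 1.203 and 1.425 in CD62Lhi PSGL1hi cells and 0.799, 0.612 and 0.646 in naive cells. The CD62Llo PSGL1lo and CD62Lhi PSGL1hi arrays lay above all naive arrays, and the CD62Llo PSGL1hi arrays overlapped them. Fos was 1.82-fold higher in CD62Llo PSGL1lo than in naive cells (0.86 ± 0.16, adjusted p = 0.00119) and 1.93-fold higher in CD62Lhi PSGL1hi than in naive cells (0.95 ± 0.16, adjusted p = 0.000707), and both calls held in all 18 alternative settings run. The difference of CD62Llo PSGL1hi from naive cells was 0.34 ± 0.16 (adjusted p = 0.18).

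Among the CD44+ populations CD62Llo PSGL1hi had the lowest mean Fos ratio. Fos differed by 0.52 ± 0.16 for CD62Llo PSGL1lo minus CD62Llo PSGL1hi cells (adjusted p = 0.0637; 0.0405 with the replicate block). That call also passed without CD62Llo PSGL1lo replicate 2 (adjusted p = 0.0118) or CD62Llo PSGL1hi replicate 2 (0.0444), after quantile normalization (0.68, 0.0487) or array median centring (0.0498), and with 1 probe set per gene (0.0404). The difference for CD62Llo PSGL1hi minus CD62Lhi PSGL1hi cells was -0.61 ± 0.16 (adjusted p = 0.108; 0.0427 without CD62Llo PSGL1lo replicate 2, and -0.85 with 0.0407 after quantile normalization), with no overlap between the arrays. CD62Llo PSGL1lo and CD62Lhi PSGL1hi cells differed by -0.09 ± 0.16 (adjusted p = 0.853).

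Fosb, a Fos gene whose splice form lacking the C terminus is known from neurons, had mean ratios of 0.938 ± 0.0396 in CD62Llo PSGL1lo, 1.08 ± 0.0784 in CD62Llo PSGL1hi, 1.16 ± 0.173 in CD62Lhi PSGL1hi and 0.866 ± 0.114 in naive cells (SD, n = 3 each). Of the 6 comparisons, only CD62Lhi PSGL1hi against naive passed, at 0.42 ± 0.12 (adjusted p = 0.0287). The call was lost without CD62Lhi PSGL1hi replicate 1 (adjusted p = 0.135) or 2 (0.0502) without naive replicate 2 (0.0737) or 3 (0.142), and with only these populations in the fit (0.0591).

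In the Jun subfamily Junb was called against naive cells in both CD62Llo populations. Junb pairs with Fos proteins and BATF, and is often a weaker activator than c-Jun. Its ratios were 1.102, 0.848 and 1.375 in CD62Llo PSGL1lo cells, 1.034, 1.130 and 1.344 in CD62Llo PSGL1hi cells, 0.745, 0.966 and 1.115 in CD62Lhi PSGL1hi cells and 0.741, 0.675 and 0.627 in naive cells. All CD44+ arrays lay above the naive arrays, with CD62Lhi PSGL1hi replicate 1 just above them. Junb was 1.71-fold higher in CD62Llo PSGL1hi than in naive cells (0.77 ± 0.18, adjusted p = 0.0069), a call kept in all 18 alternative settings, and 1.6-fold higher in CD62Llo PSGL1lo than in naive cells (0.68 ± 0.18, adjusted p = 0.0136). The second call was lost without CD62Llo PSGL1lo replicate 3 (adjusted p = 0.0715) or naive replicate 3 (0.0602) and after quantile normalization (0.53, 0.129). CD62Lhi PSGL1hi cells differed from naive cells by 0.45 ± 0.18 (adjusted p = 0.107; 0.0381 without CD62Lhi PSGL1hi replicate 1), and no pair of CD44+ populations differed for Junb (adjusted p of at least 0.562).

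Jun encodes c-Jun, the main target of the JNK kinases among these proteins. On probe set 1417409_at its ratios were 0.962, 0.761 and 1.714 in CD62Llo PSGL1lo cells, 1.092, 1.115 and 1.477 in CD62Llo PSGL1hi cells, 1.038, 0.906 and 1.623 in CD62Lhi PSGL1hi cells and 0.785, 0.683 and 0.611 in naive cells. Replicate 3 was the highest array in each of the 3 CD44+ populations, and the range within each CD44+ population exceeded the distance between their means. The difference from naive cells was 0.82 ± 0.26 for CD62Llo PSGL1hi (adjusted p = 0.0477), 0.74 ± 0.26 for CD62Lhi PSGL1hi (adjusted p = 0.0743) and 0.65 ± 0.26 for CD62Llo PSGL1lo cells (adjusted p = 0.112). The one call was lost without any single array of either population compared (adjusted p from 0.067 to 0.161 without a naive array, and 0.076, 0.0817 and 0.163 without CD62Llo PSGL1hi replicates 1, 2 and 3), without CD62Lhi PSGL1hi replicate 1 (0.0574), and after quantile normalization (0.0896). The other comparisons passed in some settings. In the replicate block naive arrays share only the number with the others, and their deviations correlated at -0.082 to 0.157. CD62Lhi PSGL1hi against naive passed with 1 probe set per gene (0.0482), the replicate block (0.0135) or only these populations in the fit (0.0234), and without CD62Lhi PSGL1hi replicate 2 (0.0469) or CD62Llo PSGL1lo replicate 2 (0.0367) or 3 (0.0216), and CD62Llo PSGL1lo against naive passed with the replicate block (0.0262) and without CD62Llo PSGL1lo replicate 2 (0.0235). The second Jun probe set, 1448694_at, correlated with the first at 0.55 over the 12 arrays and gave no call, with differences from naive cells of -0.07 ± 0.2 for CD62Llo PSGL1lo, 0.22 ± 0.2 for CD62Llo PSGL1hi and 0.28 ± 0.2 for CD62Lhi PSGL1hi cells.

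Jund, the Jun gene known for steady expression in resting cells, had on probe set 1449117_at ratios of 1.074, 1.064 and 1.304 in CD62Llo PSGL1lo cells, 1.008, 1.160 and 1.047 in CD62Llo PSGL1hi cells, 0.963, 0.992 and 0.977 in CD62Lhi PSGL1hi cells and 0.875, 0.861 and 0.870 in naive cells. The means ordered from CD62Llo PSGL1lo at the top through CD62Llo PSGL1hi and CD62Lhi PSGL1hi to naive, and no neighbours in this order passed the test. The difference of CD62Llo PSGL1lo from naive cells was 1.31-fold for Jund (0.39 ± 0.1, adjusted p = 0.0101; 0.0517 without CD62Llo PSGL1lo replicate 3). CD62Llo PSGL1hi cells were near the threshold against naive cells (0.30 ± 0.1, adjusted p = 0.0514; 0.0408 without CD62Llo PSGL1lo replicate 2 and 0.0307 without replicate 3). It passed after quantile normalization (0.0385) or array median centring (0.0311), with 1 probe set per gene (0.0439) and with only these populations in the fit (0.0332). The other Jund probe set, 1440265_at, gave no call, with a difference of -0.03 ± 0.11 between CD62Llo PSGL1lo and naive cells and a correlation of -0.26 with the first.

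Maff was the member that set CD62Llo PSGL1lo cells apart. It encodes a small Maf protein, which has no activation domain of its own and pairs with CNC proteins such as NRF2 or with itself. Its ratios were 1.415, 1.249 and 1.432 in CD62Llo PSGL1lo cells, 1.012, 0.927 and 0.875 in CD62Llo PSGL1hi cells, 0.901, 0.962 and 1.031 in CD62Lhi PSGL1hi cells and 0.814, 1.079 and 0.988 in naive cells. All 3 CD62Llo PSGL1lo arrays lay above the other 9, which overlapped each other. In CD62Llo PSGL1lo cells Maff was 1.46-fold higher than in CD62Llo PSGL1hi cells (0.54 ± 0.12, adjusted p = 0.00783), 1.41-fold higher than in CD62Lhi PSGL1hi cells (0.50 ± 0.12, adjusted p = 0.01) and 1.43-fold higher than in naive cells (0.51 ± 0.12, adjusted p = 0.00495). These 3 calls held in all 18 alternative settings, with adjusted p of at most 0.0436, 0.0473 and 0.0286.

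Atf3, a stress-induced factor that can repress as a homodimer, gave no call in any of the 6 comparisons. Its mean ratio was 0.995 ± 0.121 in CD62Llo PSGL1lo, 1.10 ± 0.139 in CD62Llo PSGL1hi, 1.13 ± 0.121 in CD62Lhi PSGL1hi and 0.942 ± 0.0399 in naive cells (SD, n = 3 each). Differences from naive cells were between 0.07 and 0.26 with an SE of 0.12.

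**Figure D2:**
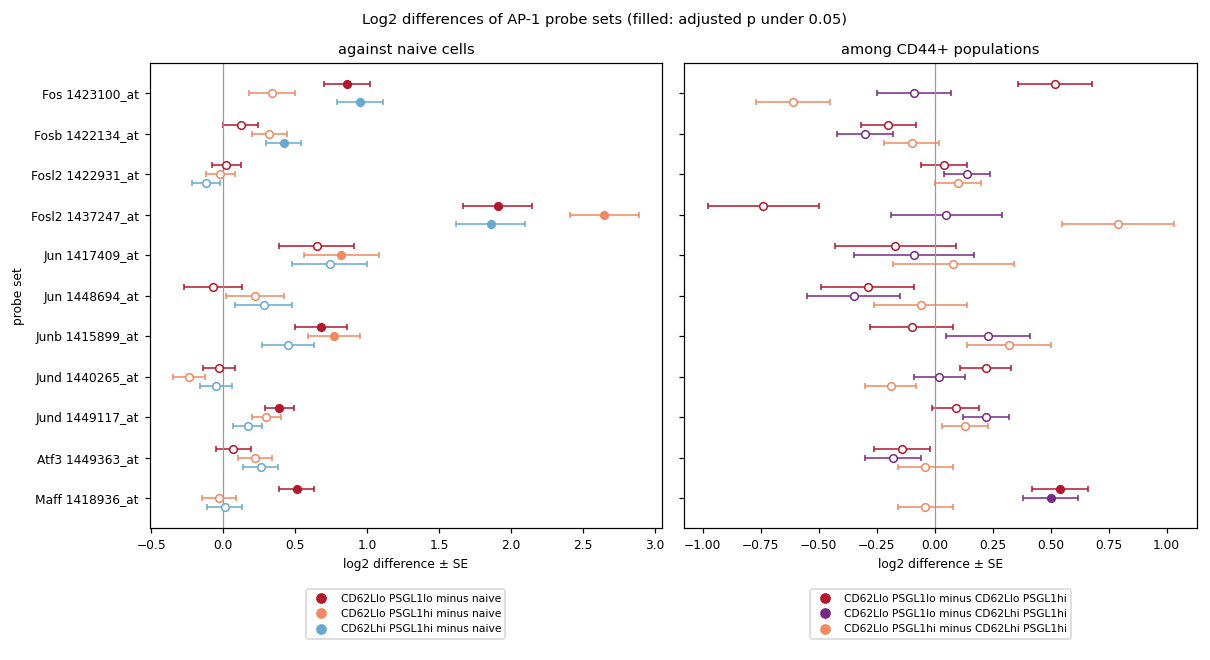
Log2 difference ± SE (x axis) of the 11 AP-1 probe sets (y axis) for each CD44+ population minus naive cells (left) and between CD44+ populations (right), with filled points at an adjusted p under 0.05. Called differences from naive cells all lie to the right of 0, up to 2.65 for Fosl2 1437247_at, and Maff alone is filled on the right, at 0.54 and 0.50.

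Counted over the family, 5 of 11 probe sets were called in CD62Llo PSGL1lo against naive cells and all 5 were higher; 20.1% of all probe sets were called in that comparison and 9.53% were called higher. In CD62Llo PSGL1hi against naive cells 3 of 11 were called, Fosl2, Junb and Jun, all higher, beside 17.3% of all probe sets, with 9.1% called higher. In CD62Lhi PSGL1hi against naive cells 3 of 11 were called, Fos, Fosl2 and Fosb, all higher, beside 17.3% of all probe sets, with 8.6% called higher. The median AP-1 difference from naive cells was 0.39, 0.30 and 0.28 for CD62Llo PSGL1lo, CD62Llo PSGL1hi and CD62Lhi PSGL1hi cells, and the median over all probe sets was -0.05 in each. The 3 comparisons share the naive arrays.

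Without the replicate block, calls of members among the CD44+ populations were about as frequent as calls over all probe sets. Maff was the 1 of 11 probe sets called in CD62Llo PSGL1lo against CD62Llo PSGL1hi cells (8.38% of all probe sets were, and 3.41% were called higher), where 3 were called with the replicate block. It was also the 1 called against CD62Lhi PSGL1hi cells (11.6% of all, 5.37% higher). In CD62Llo PSGL1hi against CD62Lhi PSGL1hi cells limma called 0 of 11 (1.23% of all, 0.395% higher), with 2 at an unadjusted p under 0.05, and 1 with the replicate block. Median AP-1 differences in these 3 comparisons were -0.10, 0.02 and -0.04, beside a median of 0.00 over all probe sets in each.

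Several members also varied with the replicate number of the array. Jun 1417409_at and Junb were highest at replicate 3 in each of the 3 CD44+ populations, and the mean deviation of Fos, Jun and Junb from the population mean was 0.44, 0.14 and 0.29 at replicate 3 in CD62Llo PSGL1lo, CD62Llo PSGL1hi and CD62Lhi PSGL1hi cells, against -0.39, 0.02 and -0.14 at replicate 2. Fosl2 1437247_at and Atf3 were highest at replicate 1 in each of these populations. In CD62Llo PSGL1hi cells Fos was highest at replicate 2 (0.226) and at -0.056 at replicate 3. Jun 1448694_at was lowest at replicate 3 there (-0.145). After the population means were removed, Jun 1417409_at correlated with Junb at 0.85 and with Fos at 0.72, Fosl2 1437247_at with Atf3 at 0.81, and Fosl2 1437247_at with Jun 1417409_at at -0.04. These correlations are over the 12 arrays, whose values share the array, and are a description.

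Heat shock genes, which respond to heat and protein damage, were also highest at replicate 1. Their mean deviation was 0.31, 0.33 and 0.26 at replicate 1 and -0.35, -0.29 and -0.20 at replicate 2 in CD62Llo PSGL1lo, CD62Llo PSGL1hi and CD62Lhi PSGL1hi cells. Against naive cells 6, 6 and 5 of 12 measured heat shock genes were called higher in these populations and 0 lower, where 10.4%, 9.91% and 9.78% of all 18193 genes were called higher and 11.5%, 9.15% and 9.43% lower, among them Hspa1b (2.33 ± 0.5, 2.89 ± 0.5 and 1.55 ± 0.5) and Hsph1 (1.44 ± 0.34, 1.84 ± 0.34 and 1.57 ± 0.34). The mean heat shock ratio of an array was 0.907 to 1.43, 0.984 to 1.61 and 0.922 to 1.25 in the CD44+ populations, against 0.694 to 0.773 in naive cells. The part of handling or stress in the AP-1 differences from naive cells was not tested.

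**Figure D3:**
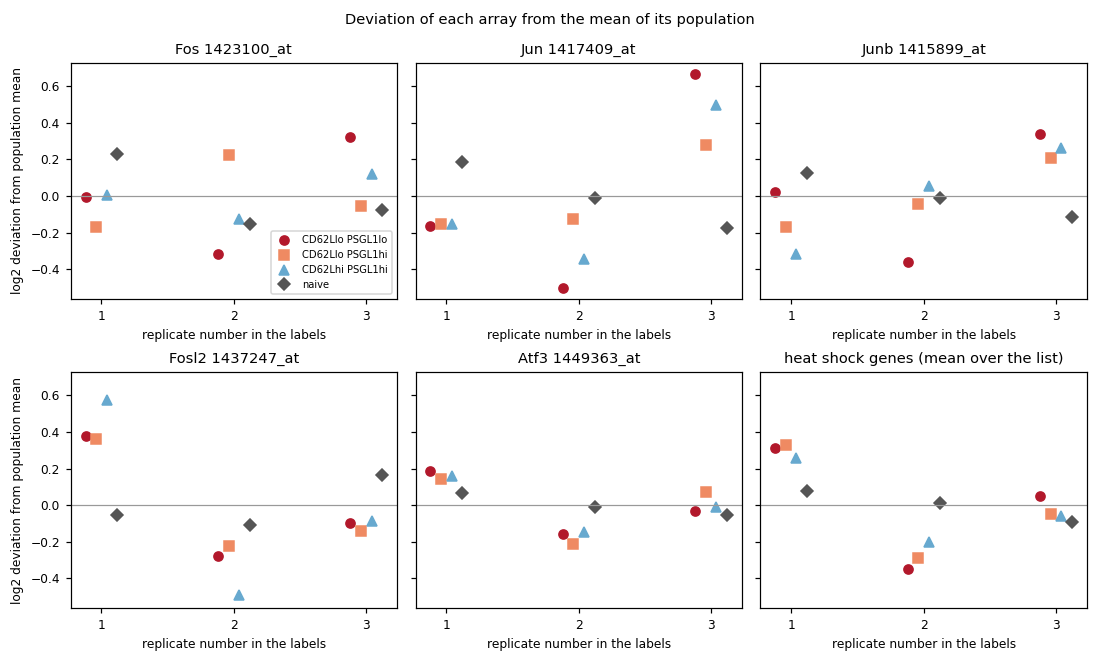
Log2 deviation of each array from the mean of its population (y axis) by the replicate number in the labels (x axis), for 5 AP-1 probe sets and for the mean of 12 heat shock genes, with 1 symbol per population. Jun and Junb are highest at replicate 3 in the 3 CD44+ populations, and Fosl2 1437247_at, Atf3 and the heat shock mean at replicate 1. Naive arrays are lowest at replicate 3 for Jun and Junb.

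Of 14 macrophage, monocyte and neutrophil genes, the neutrophil genes S100a8 and S100a9 stood apart in naive cells. They were lower in CD62Llo PSGL1lo (-3.99 ± 0.31 and -3.68 ± 0.2), CD62Llo PSGL1hi (-3.76 ± 0.31 and -3.89 ± 0.2) and CD62Lhi PSGL1hi cells (-3.98 ± 0.31 and -3.83 ± 0.2) than in naive cells. Over the 14 genes 4, 3 and 4 were called lower and 1 in each (Cd68) higher, with median differences of -0.15, -0.09 and 0.01. The mean ratio of an array was 0.799 to 1.15 in CD62Llo PSGL1lo, 0.95 to 1.24 in CD62Llo PSGL1hi and 1.01 to 1.28 in CD62Lhi PSGL1hi arrays, against 2.68 to 2.85 in naive arrays. Without S100a8 and S100a9 it was 0.799 to 1.1, 0.951 to 1.23 and 1.06 to 1.33 in the CD44+ populations, against 0.996 to 1.05 in naive arrays. No ratio was at 0, and the part of these genes in the AP-1 result was not tested. Of 5 plasma cell genes 1, 2 and 3 were called higher in CD62Llo PSGL1lo, CD62Llo PSGL1hi and CD62Lhi PSGL1hi than in naive cells: Jchain in each, Mzb1 in both PSGL1hi populations and Sdc1 in CD62Lhi PSGL1hi cells. Tnfrsf17 was called in none of them. Xbp1, which is also on the bZIP list, was not called on the probe set kept, but its 3 other probe sets were called higher in each. The mean ratios of the B cell, dendritic cell, and erythroid and platelet lists lay between 0.871 and 1.14 in every array, but opposite changes cancel in such a mean. Of 9 B cell genes 1, 2 and 2 were called higher and 4, 2 and 1 lower than in naive cells, in the same order of populations. Ms4a1 was called at -2.00 in CD62Llo PSGL1lo cells, and Cd22 at 1.94, 1.43 and 0.93. Over all genes 21.9%, 19.1% and 19.2% were called in these comparisons.

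Other bZIP genes were described from a list of 39. Of 36 measured, 12 were higher and 5 lower in CD62Llo PSGL1lo than in naive cells, 11 and 3 in CD62Llo PSGL1hi, and 9 and 3 in CD62Lhi PSGL1hi cells. Of all 18193 genes 21.9%, 19.1% and 19.2% were called in these comparisons. Maf, which encodes c-Maf, an activator of Il4 and Il21 in helper T cells, was 6.28 ± 0.26, 5.73 ± 0.26 and 5.35 ± 0.26 higher in these populations. Batf, the Jun partner at IRF4 sites, was 2.39 ± 0.16, 1.92 ± 0.16 and 1.73 ± 0.16 higher. Nfil3, a repressor of the PAR bZIP class, was 3.86 ± 0.24, 2.96 ± 0.24 and 2.63 ± 0.24 higher. Bach2, a repressor that competes with AP-1 for its sites in T cells, was lower by -2.27 ± 0.11, -2.42 ± 0.11 and -1.78 ± 0.11. Adjusted p-values of these 12 differences were at most 3.37e-06. Of 5 other Maf probe sets 4 were called in the same direction, and both other Bach2 probe sets were in the first of these comparisons.

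The remaining bZIP calls included other Maf and ATF genes. Against naive cells the endoplasmic reticulum stress factor gene Atf6 was 2.06 ± 0.1, 2.16 ± 0.1 and 1.85 ± 0.1 higher in CD62Llo PSGL1lo, CD62Llo PSGL1hi and CD62Lhi PSGL1hi cells, and Cebpb 1.49 ± 0.14, 1.45 ± 0.14 and 1.28 ± 0.14 higher, without a call on its other probe set. Mafg, which like Maff encodes a small Maf protein, was 1.52 ± 0.14, 1.07 ± 0.14 and 0.94 ± 0.14 higher. Crem, a gene of cyclic AMP response, was 1.05 ± 0.26, 1.72 ± 0.26 and 1.80 ± 0.26 higher, with 1 of 3 other probe sets called the same way. Nfe2l2, which encodes NRF2, was lower by -1.0 ± 0.15, -1.13 ± 0.15 and -1.24 ± 0.15, and the clock output gene Dbp by -0.67 ± 0.1, -0.75 ± 0.1 and -0.92 ± 0.1, while Tef of the same PAR class was 0.57 ± 0.09, 0.67 ± 0.09 and 0.32 ± 0.09 higher. Mafk, the third small Maf gene, was lower by -0.71 ± 0.13 in CD62Llo PSGL1lo cells (adjusted p = 0.000796) and at -0.38 ± 0.13 in both other populations (adjusted p = 0.0528 and 0.0546). The Fos gene Fosl1 (adjusted p of at least 0.226) and Batf3 (at least 0.839) gave no call in the 6 comparisons.

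Among the CD44+ populations 3 of 36 bZIP genes were called higher in CD62Llo PSGL1lo cells when set against CD62Llo PSGL1hi cells, Cebpa (2.85 ± 0.22), Cebpd (2.18 ± 0.22) and Nfil3 (0.90 ± 0.24, adjusted p = 0.0311), and 0 were lower. Over all genes 3.97% were called higher in that comparison and 5.64% lower. The C/EBP genes encode factors best known from myeloid cells and adipocytes, and the other Cebpd probe set was not called. In CD62Llo PSGL1lo against CD62Lhi PSGL1hi cells 8 were higher and 1 lower, with Maf at 0.93 ± 0.26 (adjusted p = 0.0347), Batf at 0.67 ± 0.16 (adjusted p = 0.0146), Mafg at 0.58 ± 0.14 (adjusted p = 0.0135) and Bach2 at -0.49 ± 0.11 (adjusted p = 0.0105). Over all genes 5.86% were called higher there and 7.37% lower. Of the other probe sets, 1 of 5 for Maf, 1 of 2 for Bach2 and the 1 for Mafg were called the same way. Bach2 was the 1 called in CD62Llo PSGL1hi against CD62Lhi PSGL1hi cells (-0.64 ± 0.11, adjusted p = 0.00986), where 1.6% of all genes were called. Neither other Bach2 probe set was called the same way in that comparison.

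**Figure D4:**
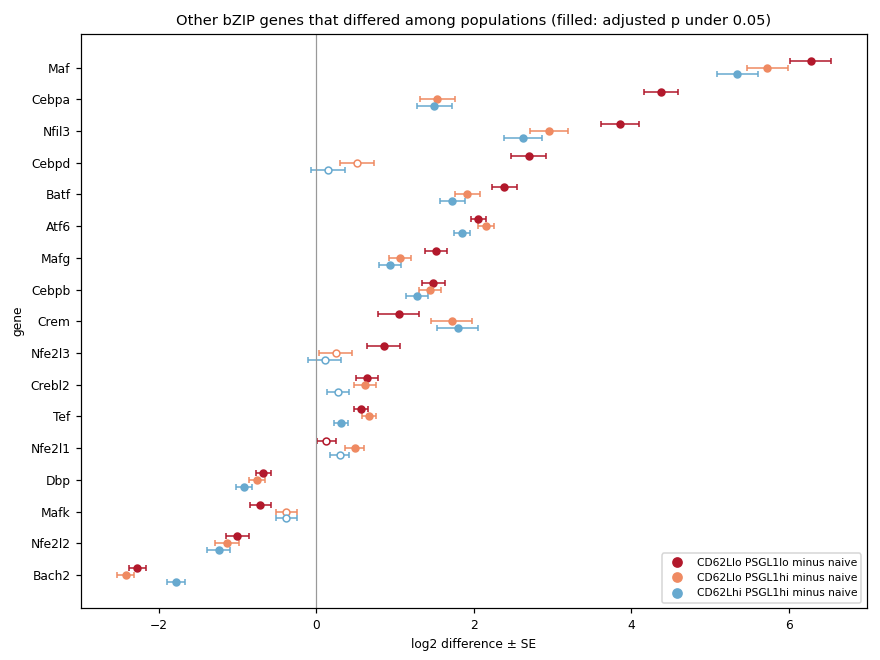
Log2 difference ± SE (x axis) from naive cells of the 17 other bZIP genes that differed among the 4 populations by the F test (y axis), in 3 colours for the CD44+ populations, with filled points at an adjusted p under 0.05. Maf lies farthest right, at 5.35 to 6.28, and Bach2 farthest left, at -2.42 to -1.78.

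Partners that share composite DNA elements with AP-1 also differed from naive cells. Of 10 measured, 3, 4 and 4 were higher and 1 in each was lower in CD62Llo PSGL1lo, CD62Llo PSGL1hi and CD62Lhi PSGL1hi cells. Of all genes 10.4%, 9.91% and 9.78% were called higher there and 11.5%, 9.15% and 9.43% lower. Irf4 was 2.70 ± 0.1, 2.46 ± 0.1 and 2.24 ± 0.1 higher, and Nfatc1, an NFAT gene induced by its own pathway, 2.57 ± 0.11, 2.28 ± 0.11 and 1.95 ± 0.11 higher. Runx1 was the 1 called lower in CD62Llo PSGL1hi and CD62Lhi PSGL1hi cells (-0.40 and -0.41), and Irf8 in CD62Llo PSGL1lo cells (-0.61). The NF-kB gene Rel was 0.43, 0.53 and 0.54 higher. In CD62Llo PSGL1lo minus CD62Llo PSGL1hi cells Irf8 was at -1.29 ± 0.18 (adjusted p = 0.000215). On the probe sets kept, the 4 genes Nfatc2, Nfatc3, Ets1 and Runx3 gave no call in the F test (adjusted p of at least 0.128). The other Runx3 probe set was called in each comparison with naive cells and in CD62Llo PSGL1lo against both other CD44+ populations. The other Nfatc3 probe set was called in CD62Llo PSGL1hi against naive cells. For Irf4 the other probe set was called the same way against naive cells in CD62Llo PSGL1lo cells alone.

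MAP kinase pathway genes were called in both directions. Of 33 measured, 8 were higher and 7 lower in CD62Llo PSGL1lo than in naive cells, 7 and 1 in CD62Llo PSGL1hi, and 4 and 2 in CD62Lhi PSGL1hi cells, beside the 21.9%, 19.1% and 19.2% called over all genes. Map3k5, which encodes the stress kinase ASK1, was 1.72, 1.51 and 1.40 higher, the adaptor gene Lcp2 0.98, 0.89 and 0.51 higher, the p38 substrate gene Mapkapk2 0.58, 0.86 and 0.60 higher and Map2k3, whose product activates p38, 0.45, 0.71 and 0.67 higher. Against CD62Llo PSGL1hi cells 3 genes were lower in CD62Llo PSGL1lo cells and 0 higher, namely Rps6ka3 (-0.37), Mrtfa (-0.53), a coactivator of SRF, and Fbxw7 (-0.36), whose ubiquitin ligase degrades c-Jun. Over all genes 3.97% were called higher in that comparison and 5.64% lower. No other probe set of Rps6ka3 or Fbxw7 was called the same way, and the F test did not call Fbxw7 (adjusted p = 0.0738).

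The list of other immediate early genes, many but not all of which are induced within minutes by receptor signals like Fos, was divided. Of 43 measured, 13, 16 and 13 were higher and 8, 3 and 5 lower in CD62Llo PSGL1lo, CD62Llo PSGL1hi and CD62Lhi PSGL1hi than in naive cells. Of all genes 10.4%, 9.91% and 9.78% were called higher there and 11.5%, 9.15% and 9.43% lower. Dusp1, whose product switches off JNK and p38, was 2.07 ± 0.11, 1.58 ± 0.11 and 1.34 ± 0.11 higher. Between CD62Llo PSGL1lo and CD62Llo PSGL1hi cells 4 were higher and 11 lower, beside 3.97% and 5.64% of all genes. Ier3 (-3.17 ± 0.18), Rgs1 (-2.36 ± 0.16), Klf2 (-1.80 ± 0.16) and Sgk1 (-1.75 ± 0.16) were lower in that comparison, and Dusp1 (0.49 ± 0.11) was higher.

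Genes described as AP-1 targets in T cells also differed by population. Of 23 measured, 11, 12 and 12 were higher and 2, 0 and 1 lower in CD62Llo PSGL1lo, CD62Llo PSGL1hi and CD62Lhi PSGL1hi than in naive cells. Of all genes 10.4%, 9.91% and 9.78% were called higher there and 11.5%, 9.15% and 9.43% lower. In CD62Llo PSGL1lo against CD62Llo PSGL1hi cells 2 were higher, Il4 and Il21, and 8 lower, with the chemokine genes Ccl3 (-3.81 ± 0.15) and Ccl4 (-3.71) and the cytokine genes Il10 (-3.36) and Ifng (-1.91) among them. Over all genes 3.97% were called higher in that comparison and 5.64% lower. Target genes have many regulators, and binding of AP-1 was not measured.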

How the data were processed

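The submitters' processing notes name MAS5. The deposited values are linear ratios made by the authors: the median over the 12 arrays was within 0.002 of 1 for 99.7% of 45101 probe sets. The sources used here do not give version, scaling or background. The median ratio of an array was between 0.967 and 1.022. Here 64 controls were left out, values were taken to log2 without pseudocount or filter, and limma 3.58.1 (R 4.3.3) was fitted to 45037 probe sets, 1 mean per population, two-sided, with 8 residual and 5.54 prior degrees of freedom. The median SE of a difference was 0.12; the number of arrays limits precision.

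The platform annotation gave 1 symbol to 34945 probe sets, several to 932 and none to 9160. All AP-1 probe sets are given. For other genes 1 probe set was kept (no cross-hybridisation suffix, curated RefSeq target, lowest number), giving 18193 genes. Named genes were all members and, of each list, up to 6 with the smallest F test p, plus called bZIP and partner genes. Members and lists were chosen with earlier results of these data known. Fosl1, Batf3, Nfatc2, Nfatc3, Ets1, Runx3, Mrtfa, Fbxw7 and Il4 lie outside this rule and were named after their values were seen.

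Same-numbered arrays correlated (deviations from population means) at 0.138 to 0.451, 0.371 to 0.446 and 0.3 to 0.339 between pairs of CD44+ populations, all above 0.1, and at -0.082 to 0.157 with naive arrays, so the replicate block is given beside results among CD44+ populations. The fit was tested on simulated data. Alternatives were quantile normalization, array median centring, a robust variance prior, 1 probe set per gene, the replicate block, only the populations compared, and each array left out.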

Additional observations from a re-analysis of the deposited data

How the results depend on the processing

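Each count of called AP-1 probe sets was recomputed in 18 settings (17 for the F test). In CD62Llo PSGL1lo against CD62Llo PSGL1hi cells the count of 1 became 2 after quantile normalization, array median centring or with 1 probe set per gene, 3 with the replicate block, and 1 to 2 without single arrays. In CD62Llo PSGL1hi against CD62Lhi PSGL1hi cells the count of 0 became 1 after quantile normalization or with the replicate block, and was 0 to 1 without single arrays. It was 1 in each such setting for CD62Llo PSGL1lo against CD62Lhi PSGL1hi. Without single arrays it was 3 to 6 for CD62Llo PSGL1lo against naive (5 with all arrays; 3 without CD62Llo PSGL1lo replicate 3), 2 to 4 for each other comparison with naive (3), and 3 to 6 in the F test (5; 3 without naive replicate 2 or 3). With the replicate block the F test called 7, and the comparisons of CD62Llo PSGL1lo, CD62Llo PSGL1hi and CD62Lhi PSGL1hi with naive cells 6, 3 and 4; naive arrays share only the number. Of single probe set results, 18 lost and 29 gained a call and 1123 did neither; no called value turned sign. Over all probe sets CD62Llo PSGL1hi against CD62Lhi PSGL1hi gave 556 calls (178 higher), 893 after quantile normalization (368 higher), 1089 with the block (529 higher), 368 with only these populations, and 364 and 370 without CD62Llo PSGL1hi replicates 1 and 2. CD62Llo PSGL1lo against CD62Lhi PSGL1hi gave 5242 and, with only these populations, 3274. With 1 probe set per gene fewer features were tested. Signal over background was not analysed here. The cause of these shifts was not tested.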

Other observations

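A mean of the 8 members was taken over 1 probe set each, kept by annotation, which is 1422931_at for Fosl2. Over the 12 arrays this mean was followed most closely, among 34934 other probe sets with 1 gene symbol, by Ctdnep1 (r = 0.969), a nuclear envelope phosphatase gene, then Ttll12 (0.965), Ercc1 (0.96), a DNA repair gene, Ppil1 (0.954), Dgkz (0.952), which encodes an enzyme that limits diacylglycerol signalling to Ras in T cells, Cd99 (0.949), Wdr54 (0.942) and Szrd1 (0.941). Fosl2 1437247_at was most like Daglb (0.983) and Zfp862-ps (0.977), Fos most like Sipa1l2 (0.928), Junb most like Wdr54 (0.955), and Maff most like Meg3 (0.949), an imprinted noncoding RNA gene. These values are the highest of many candidates over 12 arrays in 4 groups and are a description.

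A rule that keeps 1 probe set per gene by its annotation keeps 1422931_at for Fosl2, which gave no call, in place of 1437247_at, which was 1.86 to 2.65 higher in CD44+ than in naive cells on the log2 scale. The same rule keeps the Jun and Jund probe sets with calls. Which Fosl2 probe set reports the transcript was not tested.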
